A study of Mus musculus with 64 samples.

Results

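Apobec2, Vit, Penk, Enpep and Zfp503 were followed in the developing inner ear of CBA/J mouse embryos. These 5 of the 9352 genes tested were selected on their measured signal, higher in the utricle with its ampullae than in the cochlea or the saccule. They are represented by 6 of the 22626 probe sets of the array, 1 each for Apobec2, Vit, Penk and Enpep and a pair for Zfp503, of which the brighter stands for the gene unless the second is named. All 6 passed the filter on low signals, but Vit did so only through arrays of the vestibular organ and of the utricle with ampullae. The signals of the utricle with ampullae against the cochlea and against the saccule are therefore given as a description, without a test. Tests are given for the stages before the utricle and the saccule were separated, for the change over time within each tissue, and against the tissue around the ear.

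RNA from dissected tissue was hybridised to 64 Affymetrix arrays in 32 groups of 2, each array from its own pool of tissues of wild-type CBA/J embryos, with the pools of a group from different litters. The inner ear groups were the otic placode at E9, the otic vesicle at E9.5 and E10, the cochlea and the vestibular organ dissected apart from E10.5 to E12, and the cochlea, the saccule and the utricle with its 3 ampullae from E12.5 to E15. The vestibular organ was taken without the endolymphatic duct, and the utricle and the ampullae were never measured apart. Tissue from the vicinity of the ear (non-inner ear tissue) made up 6 arrays: a pair at E9, a pair pooled over E9.5 to E10.5 and a pair pooled over E11 to E15. All tissues were freed with dispase, for longer at E11 to E15 than at E9 to E10.5. In each trend from E10.5 to E12, the E10.5 stage and its shorter dispase step therefore cannot be told apart. Signals are the deposited linear intensities, which stop at a floor of 10. Differences are on the log2(signal + 16) scale after quantile normalisation, and a call needs both a size of at least 1 log2 and a limma adjusted p under 0.05.

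The utricle senses linear acceleration and the ampullae, at the ends of the semicircular canals, sense head rotation. The saccule is the other otolith organ and the cochlea is the organ of hearing. All arise from the otocyst, its dorsal side giving the canals and utricle and its ventral side the cochlea. The 5 genes have unlike roles. Apobec2 belongs to the AID/APOBEC family of cytidine deaminases and is best known from skeletal and heart muscle. Vit encodes vitrin, an extracellular matrix protein with an LCCL domain and von Willebrand A domains, the same domain types as cochlin, the product of Coch. Penk encodes proenkephalin, which is cut into the opioid peptides called enkephalins. Enpep encodes glutamyl aminopeptidase, a cell surface enzyme that removes an acidic residue from the start of peptides such as angiotensin II. Zfp503 (also Nolz1) encodes a zinc finger protein of the NET family that represses transcription, and Zfp703 is its closest relative.

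The stretch upstream of the annotated start was found for 3 of the 5 genes in the RefSeq promoter table (GRCm38.p6) and is shown because these genes share a high signal in the utricle with ampullae but differ in their other tissues. Each line gives the 250 bases before the start, 5′ to 3′ on the gene's strand, with matches to the searched motifs in capitals. The Apobec2 stretch is chr17:48432729-48432978, the Enpep stretch is chr3:129332750-129332999 and the Zfp503 stretch is chr14:21989602-21989851, all on the minus strand.
Apobec2: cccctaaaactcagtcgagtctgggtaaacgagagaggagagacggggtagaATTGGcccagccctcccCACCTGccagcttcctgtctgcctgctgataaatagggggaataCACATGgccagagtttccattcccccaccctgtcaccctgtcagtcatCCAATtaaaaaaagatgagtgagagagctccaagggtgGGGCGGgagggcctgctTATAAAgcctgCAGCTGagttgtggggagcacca
Enpep: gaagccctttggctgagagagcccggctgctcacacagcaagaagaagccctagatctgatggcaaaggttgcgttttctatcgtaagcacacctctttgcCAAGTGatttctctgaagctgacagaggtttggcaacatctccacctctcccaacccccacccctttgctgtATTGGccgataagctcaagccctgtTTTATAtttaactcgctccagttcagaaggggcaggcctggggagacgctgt
Zfp503: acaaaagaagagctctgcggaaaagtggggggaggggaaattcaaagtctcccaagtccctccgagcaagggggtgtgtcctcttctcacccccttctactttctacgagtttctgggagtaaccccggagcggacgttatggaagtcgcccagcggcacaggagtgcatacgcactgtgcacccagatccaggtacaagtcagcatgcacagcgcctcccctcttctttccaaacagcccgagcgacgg
Both strands were searched for the TATA box letters TATAAA, for CCAAT, bound by NF-Y, for the GC box GGGCGG, bound by Sp1, and for the E-box core CANNTG. Also searched were a GATA site (AGATAA), the cyclic AMP response element TGACGTCA, its variant known from Penk (TGCGTCA), and the DR5 retinoic acid element. The Apobec2 stretch held TATAAA 34 bases before the start, GGGCGG once, CCAAT at 2 places and CANNTG at 3 places. The Enpep stretch held TATAAA on the opposite strand 52 bases before the start, with CCAAT and CANNTG once each. None of the letters searched was found in the Zfp503 stretch, and the last 4 were found in none of the 3. Among all 32817 promoters of the table, 12.4% held the TATA box letters in the same window, 33.8% CCAAT, 32.7% the GC box, 66.2% the E-box core, 9.99% the GATA site, 1.55% the cyclic AMP element, 1.74% its variant and 0.00914% the DR5 element. The G and C content was 55.2% for Apobec2, 52.4% for Enpep and 57.2% for Zfp503, against a median of 52.4% over all promoters.

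The dissected tissues carried epithelial markers. All 10 epithelial genes listed were called higher in inner ear than in non-inner ear tissue at E9 and at E9.5 to E10.5. They were also called higher in the vestibular organ and the cochlea of E11 to E12 than in the tissue of E11 to E15. Of the 9352 genes, 253, 348, 822 and 997 were called higher in these comparisons, in that order. The utricle with ampullae, the saccule and the later cochlea were not tested against non-inner ear tissue. Epcam, an epithelial adhesion protein, lay at 204 to 364 in the utricle with ampullae and at the floor on both non-inner ear arrays of E11 to E15. The arrays of a pair had correlations of 0.947 to 0.991 over probe sets (not independent values). In these bulk samples, fewer cells of a type and less RNA per cell cannot be told apart.

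**Figure D1:**
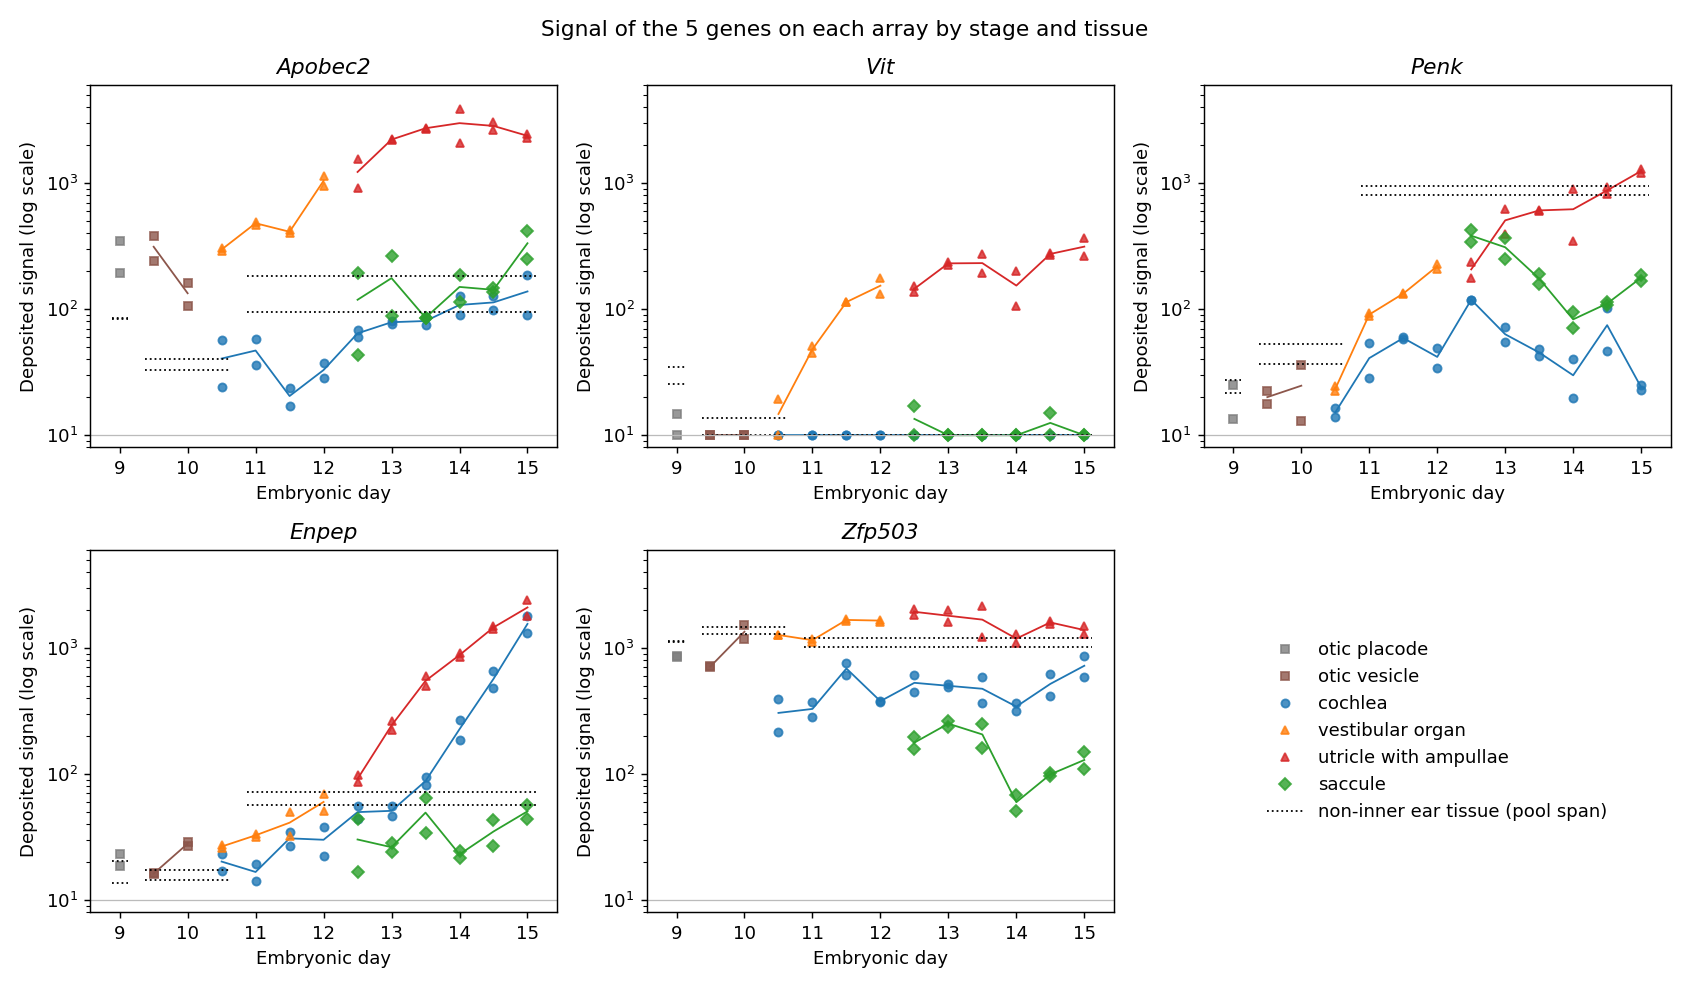
Deposited signal (log scale, floor of 10 as a grey line) against embryonic day for Apobec2, Vit, Penk, Enpep and Zfp503 (brighter probe set). Each symbol is 1 array, solid lines join the means of 2 arrays, and dotted lines give the non-inner ear arrays over the stages of their pool. For Apobec2 and Vit the utricle with ampullae lies above the cochlea and the saccule at each stage, Enpep climbs in both the utricle with ampullae and the cochlea, and Penk climbs in the utricle with ampullae while it declines in the saccule and the cochlea.

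The first question was whether the 5 genes already differed between the vestibular organ and the cochlea at E10.5 to E12. These arrays lie outside the comparisons on which the choice rested. They are no independent check, since earlier results of the series were known and the utricle was not yet separated from the vestibular organ. Apobec2, Vit and Zfp503 were called higher in the vestibular organ, 3 of 5 genes, where 0.877% of the 9352 genes were called higher and 1.41% in either direction. Penk and Enpep were not called. With the signals as deposited, 89% of the calls of this comparison were higher, against 62.1% after normalisation, the median over all genes was 0.28 log2 in place of 0.01, and Penk passed with 1.08 log2.

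Apobec2 differed most of the 5. Its signals in the vestibular organ were 305 and 289 at E10.5, 469 and 492 at E11, 399 and 423 at E11.5, and 1135 and 948 at E12. In the cochlea they were 56.9 and 24.3, 36.3 and 57.7, 17.1 and 23.8, and 37.2 and 28.7 at the same stages. The groups did not overlap at any of the 4 stages. With 2 arrays on each side, groups can separate at a stage by chance. The share of all genes that do so is not given, here or for the other members. Over these stages Apobec2 was 3.04 log2 higher in the vestibular organ (SE 0.20, limma adjusted p = 3.27e-15), the difference ranked 3 of 9352 genes. The stage differences were 2.30, 2.53, 3.29 and 4.07 log2 from E10.5 to E12. Within the vestibular organ it rose by 1.37 log2 (SE 0.38, limma adjusted p = 0.0103), one of 3 members to rise there, against 2.23% of all genes. That call was lost without the E10.5 stage (0.95 log2, adjusted p = 0.108), without vestibular replicate 2 of E10.5 (1.33 log2, adjusted p = 0.0691) and without replicate 1 of E12 (1.29 log2, adjusted p = 0.0759). The faster rise than in the cochlea, 1.82 log2 (SE 0.54), did not pass (limma adjusted p = 0.106), though it did with array weights (adjusted p = 0.00562) and with only the arrays of that comparison (adjusted p = 0.00967).

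Before the cochlear and vestibular parts were dissected apart, Apobec2 was already above the floor on each array. Its signals were 348 and 193 in the placode, 383 and 242 in the vesicle at E9.5 and 161 and 106 at E10. The change from placode to E10 vesicle was -0.94 log2 (limma adjusted p = 0.0859), and none of the 5 genes was called in that comparison, which called 5.29% of all genes. In non-inner ear tissue the signals were 85.6 and 83.6 at E9, 32.8 and 40.6 over E9.5 to E10.5, and 95.3 and 184 over E11 to E15. At E9 the placode was 1.03 log2 above its surroundings (SE 0.40, limma adjusted p = 0.0572), and again none of the 5 genes was called, against 5.93% of all genes in either direction. Apobec2 passed there with the signals as deposited (1.46 log2), with array weights (adjusted p = 0.00321) and without placode replicate 2 (1.40 log2, adjusted p = 0.0464). Over E9.5 to E10.5 it was called higher in the ear, by 1.57 log2 (SE 0.32, limma adjusted p = 0.000171), with 3.72% of genes called higher. The ear side of this comparison averages the vesicle of E9.5 and E10 with the cochlea and vestibular organ of E10.5. The E10.5 cochlea by itself lay near the non-inner ear tissue, with group means of 5.881 and 5.814 log2.

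From E12.5 on, Apobec2 reached its highest signals of the series. The utricle with ampullae gave 907 and 1542 at E12.5, 2197 and 2229 at E13, 2745 and 2695 at E13.5, 2076 and 3897 at E14, 3050 and 2628 at E14.5, and 2279 and 2458 at E15. The 12 cochlear arrays ran from 59.8 to 186 (median 87.6) and the 12 saccular arrays from 43.6 to 415 (median 142). These groups did not overlap at any stage, which the choice of the gene leads to. The utricular level was 4.32 log2 above the cochlea (1.87% of genes called higher and 1.2% lower in that comparison) and 3.81 log2 above the saccule (1.52% called higher), the second highest of all 9352 genes in each. The 6 utricular groups held the first 6 places in the order of the 32 groups, and among the first 5, from E13 to E15, no neighbours in that order differed beyond the pooled SD of 0.429 log2 between replicates. The saccule was the tissue in which Apobec2 rose by the rule, by 1.14 log2 (SE 0.34, limma adjusted p = 0.0087), in a comparison in which 4.59% of all genes rose. The call was lost with only the arrays of that comparison (adjusted p = 0.109), and without saccule replicate 2 of E12.5 (0.50 log2), replicate 1 of E13 (0.84 log2) or replicate 2 of E15 (0.93 log2), with adjusted p of up to 0.31. The change was 0.77 log2 in the utricle with ampullae (limma adjusted p = 0.0781) and 0.82 log2 in the cochlea (adjusted p = 0.0731).

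Vit had the narrowest range of tissues. Of the 64 arrays, 39 lay at the floor, among them all 20 of the cochlea and 10 of the 12 of the saccule. In the vestibular organ its signals were 10 and 19.5 at E10.5, 51.1 and 45 at E11, 114 and 113 at E11.5, and 132 and 175 at E12. Only the E10.5 groups overlapped with the cochlea. The mean over the 4 stages was at least 5.66-fold higher in the vestibular organ than in the cochlea, taking the cochlear arrays at the floor. The fitted difference was 1.59 log2 (SE 0.10, limma adjusted p = 2.78e-16), for a gene that no cochlear array helped through the filter, though its 12 utricular arrays alone would have passed it. The spread behind this SE is pooled over all groups, and groups at the floor hardly vary. The pooled SD of Vit was 0.172 log2, and its vestibular SDs were 0.284, 0.117, 0.00106 and 0.278 from E10.5 to E12. The SE and p-values of Vit, here and below, may therefore be too small. With a pseudocount of 64 the fitted difference was 0.84 log2, under the size required. An exact permutation test of the arrays within stages, two-sided, gave 0.00579 after adjustment over the 5 genes, against 0.00257 for Apobec2, Penk and Zfp503 and 0.0463 for Enpep, where 0.00154 is the smallest unadjusted p that the 1296 arrangements can give.

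The rise of Vit within the vestibular organ was 2.28 log2 from E10.5 to E12 (SE 0.18, limma adjusted p = 3.91e-12). From E10.5 to E11 the stage and the longer dispase step changed together and cannot be told apart. As each cochlear array lay at the floor, the difference between these trends (2.28 log2, SE 0.26, limma adjusted p = 1.14e-07) restates that rise and adds nothing to it. Vit was the single member called in that comparison, which called 0.214% of genes higher. The size of the trend difference moves with the settings: it was 3.11 log2 with a pseudocount of 1. With only E11 to E12 it was 1.02 log2 and did not pass (adjusted p = 0.241). The vestibular rise itself kept its call under all 10 alternatives other than leaving out an array, at 1.02 to 3.11 log2. In the utricle with ampullae the signals were 138 and 153, 238 and 223, 271 and 192, 106 and 202, 271 and 277, and 364 and 262 from E12.5 to E15. The fitted change over these stages was 0.69 log2 (SE 0.16, limma adjusted p = 0.0011), below the size required for a call. The utricular level was at least 20.8-fold above the cochlea, and on the log2 scale 3.11 above the cochlea and 3.06 above the saccule. The utricular groups took the first 6 places and the E12, E11.5 and E11 vestibular groups the next 3, followed by non-inner ear tissue at E9, with 25.3 and 34.9. Against non-inner ear tissue of E11 to E15, which lay at the floor, the vestibular organ of E11 to E12 was at least 9.13-fold higher (limma adjusted p = 6.05e-14). That comparison, whose non-inner ear pool spans later stages too, called 8.79% of genes higher and 8.06% lower, and 2 of the 5 members higher and 1 lower.

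**Figure D2:**
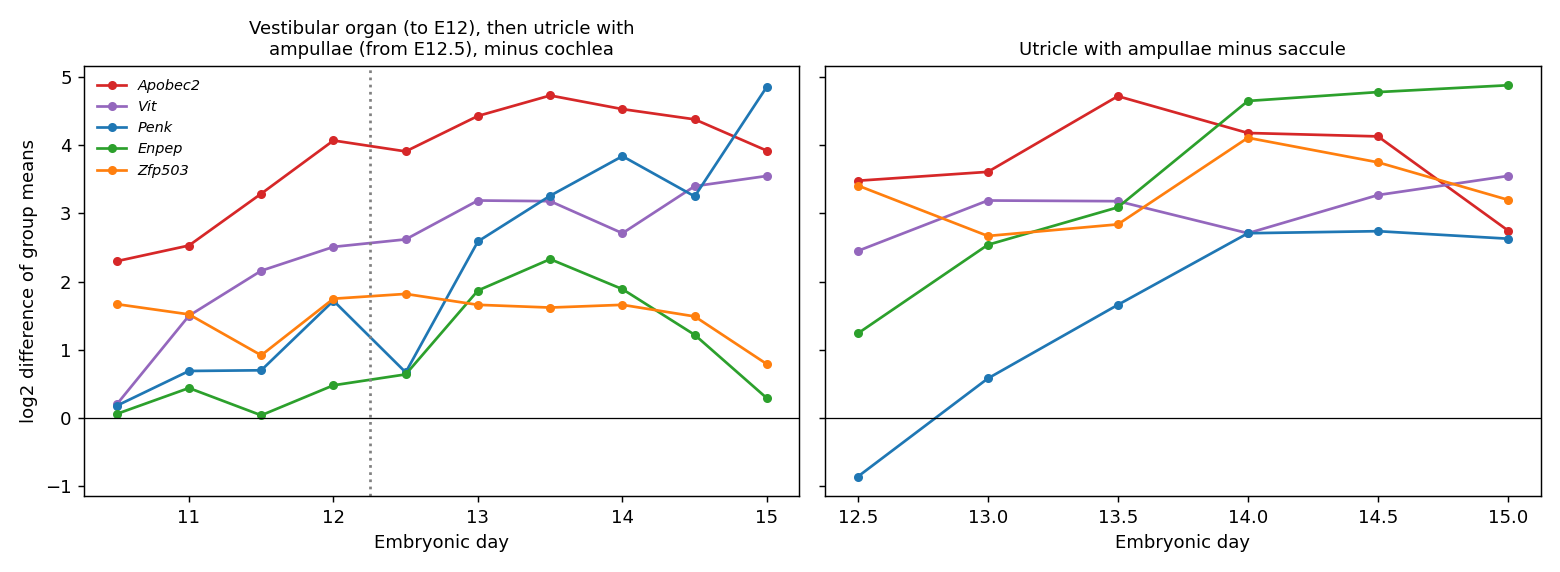
Difference of group means (log2, each group a mean of 2 arrays) at each embryonic day, on the left between the vestibular organ, then the utricle with ampullae, and the cochlea, on the right between the utricle with ampullae and the saccule. The dotted line marks the change of dissection after E12. Apobec2 is 2.30 log2 above the cochlea at E10.5, Vit and Penk start at 0.20 and 0.18, and Penk is below the saccule at E12.5 (-0.86).

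Penk changed in opposite directions in neighbouring organs. In the vestibular organ its signals were 22.3 and 24.4 at E10.5, 88.4 and 92.9 at E11, 131 and 134 at E11.5, and 209 and 229 at E12, a rise of 2.26 log2 (SE 0.27, limma adjusted p = 8.6e-08). The rise from E11 to E12 alone was 0.82 log2 (adjusted p = 0.0493), under the size required. In the cochlea the signals were 16.5 and 13.9, 53.5 and 28.3, 57.6 and 60.4, and 49.2 and 34.4 at the same stages. The groups did not overlap at any of these 4 stages. The mean difference of 0.82 log2 (SE 0.14, limma adjusted p = 3.15e-05) was below the size required. It reached 1.04 log2 with only E11 to E12. The cochlear change of 0.88 log2 over these stages (adjusted p = 0.0143) was not called either, and no member was called in that comparison, which called 7.2% of all genes. The difference between the vestibular and cochlear trends was 1.39 log2 (limma adjusted p = 0.0759). It passed with array weights (adjusted p = 0.0154), with only the arrays of that comparison (adjusted p = 0.0168) and without cochlea replicate 2 of E11 (1.49 log2, adjusted p = 0.0466).

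From E12.5 to E15 Penk rose in the utricle with ampullae and fell in both other organs. The utricular signals were 175 and 238 at E12.5, 394 and 618 at E13, 609 and 604 at E13.5, 345 and 895 at E14, 929 and 821 at E14.5, and 1283 and 1208 at E15. The saccular signals were 343 and 422, 251 and 368, 158 and 191, 71.3 and 94.7, 114 and 108, and 167 and 188 at the same stages. The cochlear signals were 119 and 119, 71.9 and 54.6, 42.3 and 48.3, 19.6 and 40.1, 103 and 46.5, and 22.9 and 25.1. At E12.5 both saccular arrays were thus above both utricular arrays, and from E13 on the order was the opposite. The fitted change was 2.04 log2 in the utricle with ampullae (SE 0.24, limma adjusted p = 1.91e-08), with 2 of 5 members risen against 5.04% of all genes. It was -1.32 log2 in the cochlea (SE 0.24, limma adjusted p = 5.05e-05; 2.88% of genes fell and 3.42% rose) and -1.53 log2 in the saccule (SE 0.24, limma adjusted p = 3.78e-06; 2.49% fell). With a pseudocount of 64 the cochlear change was -0.79 log2, under the size required.

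The trends of Penk differed between the organs themselves. The utricular trend exceeded the cochlear one by 3.36 log2 (SE 0.34, limma adjusted p = 3.3e-09), 1 of 5 members against 2.13% of genes called higher, and the saccular one by 3.57 log2 (SE 0.34, limma adjusted p = 1.06e-09), where Penk and Enpep were the 2 of 5 members called, against 1.15% of genes. Both differences ranked 5 of 9352 and share the utricular arrays. These arrays are those used to choose the genes, although the level and not the change over time was the basis of the choice. Leaving out any 1 array kept the differences at 3.16 to 3.56 log2 and at 3.40 to 3.74 log2. Described by level, Penk was 3.08 log2 higher in the utricle with ampullae than in the cochlea and 1.58 log2 higher than in the saccule.

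Penk had a high signal outside the ear at the later stages. Non-inner ear tissue of E11 to E15 gave 809 and 944, second in the order of the 32 groups after the E15 utricle with ampullae, from which it did not differ beyond the pooled SD of 0.300 log2. The vestibular organ of E11 to E12 was called lower than that tissue (difference -2.83 log2, SE 0.23, limma adjusted p = 5.27e-13) and so was the cochlea of the same stages (difference -3.86 log2, SE 0.23, limma adjusted p = 5.73e-17). Markers of mesenchyme, the connective tissue around the ear, were high in that tissue too. The summed signal of 13 mesenchyme genes was 2116 to 4085 over the utricular arrays, 3991 to 9285 over the late cochlear arrays, 3208 to 5768 over the saccular arrays and 17541 to 19228 in the non-inner ear arrays of E11 to E15. In the utricle with ampullae the collagen gene Col1a1 had a median of 19.7 with 4 of 12 arrays at the floor, and Tbx18 lay at the floor on 10 of 12. Of 12 mesenchyme genes tested, 1 rose in the utricle with ampullae from E12.5 to E15, Col1a1 by 1.64 log2 (SE 0.38, limma adjusted p = 0.000975), and Lum fell by 2.31 log2. In the vestibular organ of E10.5 to E12, where Penk rose, Dcn (2.83 log2), Lum (2.67) and Postn (1.11) rose, 3 of the 12. In the saccule, where Penk fell, Lum (-1.36) and Twist1 (-1.19) fell and Postn (2.66) rose. Lum (2.21) and Dcn (2.13) were also higher in the utricle with ampullae than in the saccule, while Postn (-3.23) and Col3a1 (-1.49) were lower. Compared with the cochlea, the utricle with ampullae was higher for Penk but lower for Postn (-1.95), Lum (-1.71) and Dcn (-1.38). In the late cochlea, where Penk fell, Dcn (1.6) and Lum (1.15) rose. In the vestibular organ of E10.5 to E12, Postn (-1.18) and Dcn (-1.08) were lower than in the cochlea. The part of mesenchyme in the Penk signal was not tested.

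Enpep had the largest changes over time of the 5 genes, and rose both in the utricle with ampullae and in the cochlea. Its signals in the utricle with ampullae were 97.2 and 85.5 at E12.5, 263 and 222 at E13, 601 and 494 at E13.5, 913 and 839 at E14, 1406 and 1496 at E14.5, and 2379 and 1800 at E15. In the cochlea they were 55.8 and 43.7, 55.2 and 46.8, 94.4 and 81.2, 187 and 266, 653 and 481, and 1793 and 1302. The saccule stayed between 16.7 and 64.4 over its 12 arrays. The rise was 4.19 log2 in the utricle with ampullae (SE 0.20, limma adjusted p = 1.22e-19) and 4.78 log2 in the cochlea (SE 0.20, limma adjusted p = 4.84e-21), ranked 9 and 3 of 9352. In the saccule the change was 0.40 log2 (limma adjusted p = 0.122). The utricular and cochlear trends differed by -0.59 log2 (95% interval -1.16 to -0.02, limma adjusted p = 0.198), and the utricular and saccular trends by 3.79 log2 (SE 0.28, limma adjusted p = 1.07e-12). The difference between utricle with ampullae and cochlea was 0.64 log2 at E12.5, 2.33 at E13.5 and 0.29 at E15, when the arrays of both organs overlapped. Over all 6 stages it was 1.37 log2, rank 87, against 3.53 log2 and rank 3 for the utricle with ampullae and the saccule.

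Before E12.5 Enpep was low in all tissues. The vestibular arrays ran from 25.8 to 69.4 (median 32.6) and the cochlear arrays from 14.1 to 37.6 (median 22.9). The difference between these organs was 0.26 log2 (SE 0.12, limma adjusted p = 0.111), and the arrays overlapped at E10.5 and E11.5. The placode and vesicle arrays lay between 16 and 28.9. Non-inner ear tissue reached 56.4 and 72.5 over E11 to E15. In the order of the 32 groups the E15 cochlea came second and was separated from the E15 utricle with ampullae by 0.29 log2, above the pooled SD of 0.238.

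**Figure D3:**
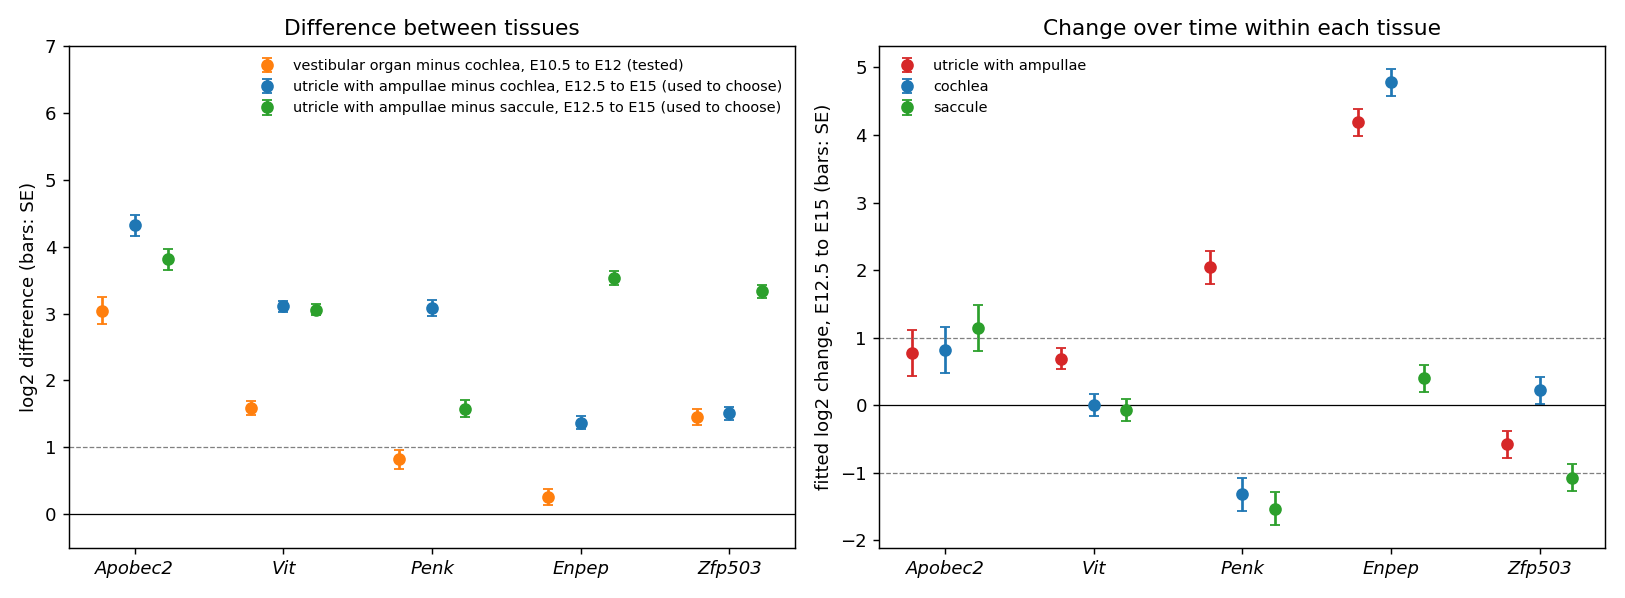
Left, log2 differences between tissues for each gene, tested for the vestibular organ and descriptive for the pairs used to choose the genes. Right, fitted log2 change from E12.5 to E15 within each organ. Bars are SE over the model of 64 arrays and dashed lines mark 1 log2. Enpep rises by 4.19 in the utricle with ampullae and by 4.78 in the cochlea, while Penk has 2.04 in the utricle with ampullae, -1.32 in the cochlea and -1.53 in the saccule.

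Zfp503 was lowest in the saccule and was not called rising in the utricle with ampullae. As for Enpep, its saccular arrays lay below the cochlear ones at all 6 stages. Its signals were 1115 to 1689 in the vestibular organ, 1086 to 2130 in the utricle with ampullae, 216 to 856 over all cochlear arrays and 51.1 to 264 in the saccule. The placode gave 867 and 845, the vesicle 705 to 1510, and the 6 non-inner ear arrays 1018 to 1468. Over E10.5 to E12 it was 1.46 log2 higher in the vestibular organ than in the cochlea (SE 0.12, limma adjusted p = 9.2e-13), without overlap at any of the 4 stages. The difference was present at E10.5 (1.67 log2) and the trends of the organs differed by -0.12 log2 (95% interval -0.76 to 0.52, limma adjusted p = 0.937). The change in the utricle with ampullae was -0.58 log2 (SE 0.20, limma adjusted p = 0.0232), below the size required. The saccular lows were 51.1 and 68.4 at E14 and 102 and 96.6 at E14.5, after 237 and 264 at E13.

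Zfp503 fell in the saccule by 1.07 log2 (SE 0.20, limma adjusted p = 4.87e-05), but its second probe set did not show it. With that probe set the saccular change was 0.14 log2 (adjusted p = 0.619 over all probe sets), on signals of 10 to 25.2 with 3 of 12 arrays at the floor. The fall was also below 1 log2 in size with a pseudocount of 64 (-0.82 log2), without the E14 arrays (-0.91 log2) and without saccule replicate 1 of E12.5 (-0.97) or of E15 (-0.95). Otherwise the probe sets ran together, with a correlation of 0.91 over the 29 inner ear groups, and the second gave 1.45 log2 for vestibular organ minus cochlea. By level, Zfp503 was 1.51 log2 higher in the utricle with ampullae than in the cochlea and 3.33 log2 higher than in the saccule.

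Against its surroundings Zfp503 was lower on average, not higher, in the ear of E9.5 to E10.5, by unlike amounts in its parts. The group means were 9.362 log2 in the vesicle at E9.5 and 10.12 at E10. At E10.5 they were 8.47 in the cochlea and 10.14 in the vestibular organ, against 10.77 in non-inner ear tissue. Over E9.5 to E10.5 it was called lower than in non-inner ear tissue (difference -1.17 log2, SE 0.19, limma adjusted p = 4.56e-06), where 4.68% of genes were called lower. With the signals as deposited the difference was -0.71 log2 and not called, with a median over all genes of 0.33 log2. The cochlea of E11 to E12 was called lower than the tissue of E11 to E15 for Apobec2 (-1.63), Penk (-3.86) and Zfp503 (-1.49), 3 of 5 members against 10.1% of all genes. For Zfp503 the vestibular organ of the same stages differed from that tissue by -0.09 log2 (95% interval -0.48 to 0.30).

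Of the relatives of the 5 genes, only Coch and Zfp703 were tested, and neither was called between vestibular organ and cochlea. Coch, with the domains of Vit, differed there by 0.13 log2 (limma adjusted p = 0.571), ran from 27.8 to 122 in the utricle with ampullae and rose in it by 1.12 log2 (SE 0.24, limma adjusted p = 0.000371). Zfp703 was 0.65 log2 higher in the vestibular organ (SE 0.11, limma adjusted p = 1.52e-05), under the size required, and 0.35 log2 higher in the utricle with ampullae than in the cochlea. Apobec1, Pdyn and Anpep, relatives of Apobec2, Penk and Enpep, did not pass the filter. In the utricle with ampullae their medians were 43.5 for Apobec1, 10.4 for Pdyn, the gene of prodynorphin, and 31.5 for Anpep, another membrane aminopeptidase.

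For the pathways around the members, calls between vestibular organ and cochlea are set beside the shares of all genes, 0.877% called higher and 0.535% lower. At these shares, lists this short would mostly hold no call, so a list without one says little. None was called of 11 genes of opioid peptides and their processing and receptors, of 6 deaminases, of 8 proteins with LCCL or von Willebrand A domains, and of 10 genes of the angiotensin system and surface peptidases. Among 8 Groucho corepressors and partners, Tle2 (1.23 log2) and Tle6 (1.04 log2) were higher. In the utricle with ampullae against the cochlea, the opioid list had Chgb (1.43 log2), a secretory granule protein, and Pam (1.02 log2), which amidates peptides, called higher of 11. The peptidase list had Ecel1 (-1.61 log2) and Dpp4 (-1.49 log2) lower of 10. The list of von Willebrand A proteins had the matrilin Matn4 (2.65 log2), also a cartilage marker here, higher of 8. The Groucho list had Tle6 (1.49 log2) higher of 8. In that comparison 1.87% of all genes were called higher and 1.2% lower. Of the opioid list, Chgb, Chga and Scg5 rose in the utricle with ampullae from E12.5 to E15, where Penk rose, and also in the saccule, where Penk fell.

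Genes of dorsal otocyst and of retinoic acid gave more calls. Of 15 dorsal otocyst and canal genes, 6 were higher in the vestibular organ and none lower, with a median of 0.47 log2 against 0.01 over all genes. Meis2 (1.78 log2), Lmo4 (1.71) and Hmx2 (1.56), all regulators of transcription, led them. In the utricle with ampullae against the cochlea, 5 of 15 were higher, among them Meis2 (3.09), Hmx2 (2.12) and Bmp2 (2.02), a secreted growth factor. Of 11 retinoic acid genes, 4 were higher and 2 lower in the vestibular organ. Aldh1a2 (2.24) and Aldh1a3 (1.90), enzymes that make retinoic acid, were higher, and Cyp26a1 (-1.47), which breaks it down, was lower. In the later comparison with the cochlea, 3 were higher and 4 lower, with Cyp26a1 at -4.11, Aldh1a2 at 2.95 and Aldh1a3 at 2.80 log2.

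Cell type markers differed in how they moved beside the members. No gene of 11 tested for skeletal muscle was called between vestibular organ and cochlea or between the utricle with ampullae and the cochlea or the saccule. Of all genes, 1.41% were called in the first comparison, 1.87% higher and 1.2% lower in the second, and 1.52% higher in the third. Lists this short would mostly hold no call, so one without a call says little. The summed signal of 20 muscle genes was 899 to 1179 in the utricle with ampullae, 808 to 990 in the late cochlea, 932 to 1230 in the saccule and 1696 to 2831 in non-inner ear tissue of E11 to E15. The muscle determination gene Myod1 had a median of 28.7 in the utricle with ampullae and 39.7 in the saccule. For 10 genes of pericytes and smooth muscle the sums were 886 to 1153 in the utricle with ampullae and 1002 to 1241 in the late cochlea, and Rgs5 was called lower in the utricle with ampullae than in the cochlea (-1.62 log2). Of 11 hair cell markers, 4 were higher in the utricle with ampullae than in the cochlea, as the members were (Gfi1 3.14, Atoh1 1.65, Myo6 1.42 and Espn 1.01 log2), where 1.87% of all genes were called higher, and none was called against the saccule. From E12.5 to E15, 6 of the 11 rose in the utricle with ampullae (5.04% of all genes rose), 3 in the cochlea, where 1 fell (3.42% and 2.88%), and 8 in the saccule (4.59%). Of 12 neuron markers tested, 3 were higher and 1 lower in the utricle with ampullae than in the cochlea, led by Nefm (3.05 log2), and the summed signal of 13 was 3056 to 6397 there, 1832 to 2994 in the late cochlea and 3087 to 7353 in the saccule. Of the cartilage list, Matn4 (2.65 log2) was higher and Cnmd (-1.64) lower in the utricle with ampullae than in the cochlea. Matn4 (5.27) and Col9a1 (1.79) rose in the utricle with ampullae from E12.5 to E15, as in the cochlea (2.69 and 1.04). The summed signal of 8 cartilage genes was 2942 to 13442 in the utricle with ampullae and 7090 to 10427 in the late cochlea. It was 6952 to 12455 in the saccule and 12372 to 15566 in non-inner ear tissue of E11 to E15. Whether hair cells, neurons or cartilage had a part in the members' signals was not tested.

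The 5 genes were not one pattern. Over the 29 inner ear groups, Pearson correlations of group means between members ran from 0.22 for Penk and Zfp503 to 0.92 for Apobec2 and Vit. They describe groups that share tissues and stages. The groups include the utricle with ampullae, for whose high signal the members were chosen, so part of any likeness follows from the choice. In likeness to Apobec2, Vit came after Dpysl3 (0.941), a cytoskeletal regulator of neurons, and Timp3 (0.927), an inhibitor of matrix proteases, and before all other genes, the next being Tle6 (0.918). The nearest genes of Vit were Timp3 (0.956), Bmp2 (0.929), Apobec2 (0.920) and Cacna2d3 (0.919), a calcium channel subunit. Timp3 signals were 464 to 1577 in the utricle with ampullae, 54.9 to 245 in the late cochlea and 52.2 to 118 in the saccule.

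Enpep was nearest to Grik1 (0.945), a glutamate receptor subunit, Esrrb (0.936), an orphan nuclear receptor, Vdr (0.929), the vitamin D receptor, and Cybrd1 (0.922), an iron reductase. Esrrb rose by 4.29 log2 in the utricle with ampullae and by 3.59 log2 in the cochlea and changed by 0.31 log2 in the saccule, beside 4.19, 4.78 and 0.40 for Enpep. Zfp503 was nearest to Dlx1 (0.917), a homeobox gene, Fn1 (0.906), the gene of fibronectin, Tbx1 (0.889), a regulator of otic patterning, and Ngfr (0.876), a neurotrophin receptor. Dlx1 signals were 2939 to 4960 in the utricle with ampullae, 371 to 1011 in the late cochlea and 18.8 to 257 in the saccule, the order of organs also seen for Zfp503. Penk had the least close neighbours: Tifa (0.891), a signalling adaptor, Rflnb (0.882), which binds filamins, Gstt1 (0.848), a glutathione transferase, and Sspn (0.848), a membrane protein of the dystrophin complex. None of the 4 was called fallen in the saccule, with changes there of 0.26, 0.97, -0.11 and 0.07 log2.

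**Figure D4:**
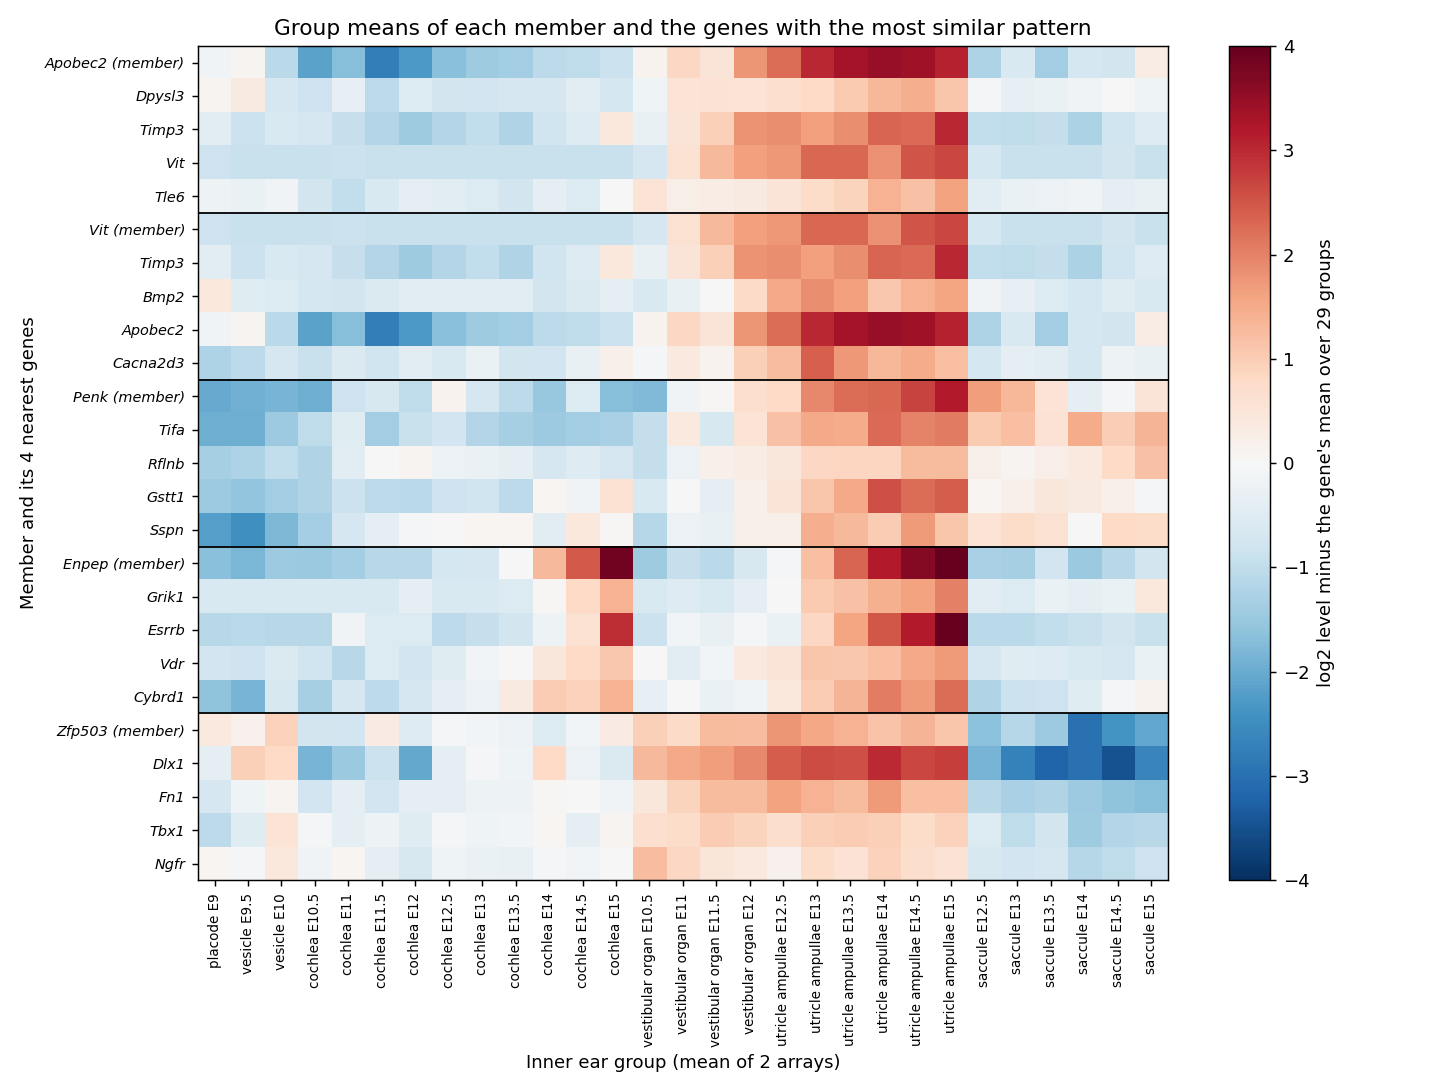
Group means (log2, relative to each gene's mean over the 29 inner ear groups, colours limited at 4) for each member and its 4 nearest genes, with lines between the sets. The utricle with ampullae is high in each set, which follows from the choice of the members and of genes like them. The late cochlea joins it in the set of Enpep, and the saccule is low in the set of Zfp503.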

How the data were processed

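RNA of dissected mouse tissues was measured on 64 arrays, 2 for each of 32 groups taken from the labels. The deposited values are linear signal intensities per probe set, made by the authors with MAS5 per the submitters' processing notes, with version and scaling not given in the sources used here. Of 22626 probe sets, 20380 had 1 gene symbol in the platform annotation, 691 several and 1555 none.

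Signals were log2-transformed after adding 16 and quantile normalised, since the trimmed mean signals of the arrays spanned 224.7 to 355.3. Kept were probe sets at or above the array median on at least 2 arrays, with 1 symbol, and the one with the highest mean for each gene, which left 9352 genes. One limma model (R 4.3.3, limma 3.58.1) with a mean for each group was fitted to all 64 arrays, and p-values were adjusted by Benjamini-Hochberg over all genes. A trend is the least-squares slope over group means times the days spanned. On each array 5.43 to 12.0% of values lay at the floor of 10, which bounds low signals, and 2 arrays per group limit the precision. The p-values rest on the spread between pools, which came from different litters. The steps were tested on simulated data.

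The 5 genes and all lists were chosen with earlier results of these data known. Named were the 5 genes, the 4 nearest genes of each by Pearson correlation over the 29 inner ear groups, up to 3 called genes of each pathway list, called and defining genes of the cell type lists, and a known relative of each member. Epcam, Col1a1 in the trend of the utricle and the list genes named for their trends or against the saccule were picked after their values were seen. Alternatives were other pseudocounts and filters, no normalisation, every probe set alone, array weights, only the arrays of a comparison, blocks, only E11 to E12 and single arrays left out. Leaving out E14 was added after seeing the data. Replicates of the same number in utricle with ampullae and cochlea deviated together at all 6 stages (r 0.203 to 0.508). Same-numbered pools of the cochlea, the saccule and the utricle with ampullae also held equal numbers of tissues at E13, E14 and E15. At E12.5, E13.5 and E14.5 the numbers were equal or close. The replicate numbers may thus pair the arrays, as organs of the same ears would, but no label says so. The main model does not use a pairing, and its tests between organs treat these arrays as independent.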

Additional observations from a re-analysis of the deposited data

Results flagged for a closer look

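For 4 results the test of a difference in trend between organs passed. The trend of Vit from E10.5 to E12 was 2.28 log2 higher in the vestibular organ than in the cochlea, where all arrays lay at the floor, so that this difference restates the vestibular rise. The trend of Penk from E12.5 to E15 was 3.36 log2 higher in the utricle with ampullae than in the cochlea and 3.57 log2 higher than in the saccule. The trend of Enpep over the same stages was 3.79 log2 higher in the utricle with ampullae than in the saccule. The comparisons of E12.5 to E15 share the utricular arrays. Groups of 2 arrays were too small to look for single outlying arrays.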

How the results depend on the processing

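Of the members' values under the alternatives other than leaving out an array, 770 kept their direction and side of the threshold, 14 newly passed, 10 no longer passed, 10 moved and 6 reversed. The causes were not tested except where the alternative's construction shows them. The number of genes called between vestibular organ and cochlea was 132, and 202 with a pseudocount of 1, 63 with 64 and 218 with the signals as deposited. There Vit was 0.84 log2 with a pseudocount of 64, and Penk 1.08 as deposited and 1.04 with only E11 to E12. A pseudocount of 64, which shrinks low signals, gave 204 calls for the trend in the vestibular organ (376 before), 380 and 382 for the early and late cochlear trends (673 and 589), 426 for the utricle with ampullae (704), 420 for the saccule (662) and 117 for the utricular minus saccular trend (197). It gave 260 calls for the E10 vesicle against the placode (495), 276 and 458 against non-inner ear tissue at E9 and E9.5 to E10.5 (555 and 786), 970 and 1293 for the later vestibular organ and cochlea against it (1576 and 1942), and 188 and 162 for utricle with ampullae minus cochlea and minus saccule (287 and 254). Testing each of 14014 probe sets alone gave 570 and 1036 calls for the early vestibular and cochlear trends, 118 for their difference (76 before), 1063 for the utricular trend, 568 for its difference from the cochlea (361), 760 for the vesicle, 846 at E9 and 2929 for the later cochlea. The early trend difference had 121 calls with array weights, 116 with only its own arrays and 17 with only E11 to E12, which also left 238 and 429 calls for the trends. The utricular minus saccular trend had 121 calls with only its own arrays.

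Signals as deposited gave 987 calls at E9 and raised the share of calls that were higher from 45.6% to 87.4% there, from 44.3% to 74.3% at E9.5 to E10.5, from 52.2% to 75.9% for the later vestibular organ against non-inner ear tissue, and from 55.6% to 70.8% and 56.2% to 66.9% for the early vestibular and cochlear trends, with medians of all genes of 0.32, 0.33, 0.27, 0.12 and 0.11 log2.

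Reversed values were small. The utricular minus cochlear trend of Apobec2 was 0.17 with a pseudocount of 64 and 0.01 as deposited. As deposited, Enpep was 0.16 at E9 and Zfp503 0.40 in the later vestibular organ against non-inner ear tissue. With only E11 to E12 the cochlear trend of Penk was -0.20 and the trend difference of Zfp503 0.23. Leaving out 1 array at a time gave 49 to 144 calls for the early trend difference (49 without cochlea E12 replicate 2, 144 without cochlea E10.5 replicate 1). It gave 236 to 643 calls for utricular minus cochlear trend (236 and 643 without utricle E12.5 replicate 1 and 2, 586 without cochlea E15 replicate 1) and 133 to 360 for utricular minus saccular trend (360 without utricle E12.5 replicate 2). Values that changed sign ranged from -0.23 to 0.54 for Penk from placode to vesicle, -0.47 to 0.24 for Zfp503 in the early trend difference, -0.37 to 0.28 and -1.01 to 0.27 for Apobec2 in the utricular trend minus the cochlear and the saccular one, -0.19 to 0.06 for the saccular trend of Vit, -0.22 to 0.08 for Enpep at E9, -0.20 to 0.03 for Vit at E9.5 to E10.5 and -0.23 to 0.05 for Zfp503 in the later vestibular organ against non-inner ear tissue.

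With the replicate number within each stage as a block, Apobec2 was 3.04 log2 between vestibular organ and cochlea. The trend difference of Penk then passed (1.39 log2, limma adjusted p = 0.0144). That is no support, since those arrays are known to share only a number. Same-numbered arrays of vestibular organ and cochlea correlated at -0.0129 to 0.187, 2 of 4 stages above 0.1. For utricle with ampullae and saccule the range was -0.342 to 0.502 and for saccule and cochlea -0.499 to 0.571, each above 0.1 at 5 of 6 stages and negative at E15, so whether the numbers pair these arrays is not settled. The blocks changed no other call of the members. Signals near the floor, as for Vit outside the vestibular organs, give only bounds.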
